A study of Oryza sativa with 6 samples.

Results

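The aquaporin genes of rice were followed in leaves of a glyphosate-tolerant line that was sprayed with glyphosate or left unsprayed. Every gene entry whose deposited description contains the word aquaporin was taken, which gave 30 of 35018 entries. All 30 also carried a KEGG orthology entry for an aquaporin subfamily, and that entry, not the measured values, placed 11 of them among the plasma membrane intrinsic proteins (PIP), 8 among the tonoplast intrinsic proteins (TIP), 9 among the nodulin 26-like intrinsic proteins (NIP) and 2 among the small basic intrinsic proteins (SIP). A term for water transport was attached to 19 of the 30 genes.

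Rice line CA21 is a non-transgenic mutant that was obtained by irradiation and ethyl methane sulfonate mutagenesis, then by crossing and backcrossing with a glyphosate-sensitive line. Both groups carry this same mutant background. The control group, CK, consisted of 3 leaf libraries from unsprayed CA21 seedlings. The glyphosate group, GLY, consisted of 3 leaf libraries from CA21 seedlings sprayed with glyphosate at 2 mg per ml at the third-leaf stage. The controls are described as untreated, without a mock spray, so glyphosate and the spraying itself cannot be told apart. Leaves were collected when the plants of that sensitive line had died. The study measured physiological indicators in both lines, but only CA21 was sequenced. In these expression data a response of CA21 thus cannot be told apart from a response of rice in general.

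Aquaporins are membrane channels that let water, and in some members small uncharged solutes, pass along a gradient. PIP channels sit mainly in the plasma membrane and TIP channels in the membrane of the vacuole, and both are major routes of water through leaf cells. NIP channels are better known for solutes such as silicic acid, boric acid and glycerol, and SIP channels are intracellular and less well understood.

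A depth figure derived from the deposited read coverage and expression values was between 3.43 and 3.80 Gb in CK and between 3.84 and 4.40 Gb in GLY. It is not a measured yield. The study lists several times more valid bases for each library, with CK above GLY. Of the markers of green leaf, 24 entries were found, and their summed level was between 49218 and 55204 FPKM in CK and between 29174 and 41738 FPKM in GLY, where FPKM is fragments per kilobase of transcript, scaled to the mapped fragments of the library. The 8 entries for seed storage proteins summed to at most 1.497 FPKM in any library, and the words chosen for dividing cells matched 0 descriptions. The lower green leaf sum moved with the group, and its part in the results below was not tested. In whole leaves, fewer cells of a type and less RNA per cell cannot be told apart. The replicates are labelled only as replications, so p values measure the spread between these libraries. Of all entries, 19316 averaged 0.5 FPKM or more and were tested with limma on log2(FPKM + 1). A gene was called where it differed by 1 or more on this log2 scale, in either direction, at an unadjusted P under 0.05, as 1734 entries (8.98%) did. Of these calls 73.3% were higher in GLY, against 51.3% after median-of-ratios scaling, which moved the median log2 fold change of all entries from 0.20 to -0.02.

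Of the 30 aquaporin genes, 23 reached that mean and were tested, namely all 11 PIP, 5 of 8 TIP, 5 of 9 NIP and both SIP genes. Glyphosate-treated leaves had a higher FPKM of 5 PIP genes and a lower FPKM of 1 TIP gene at the call threshold. The 5 higher calls stand beside a background of 6.58% of all entries tested, and the 1 lower call beside 2.4%, or 6 calls of 23 beside 8.98%. At a limma adjusted p under 0.05, 8 aquaporin genes were higher (6 PIP, 1 TIP and 1 NIP) and 2 were lower (1 TIP and 1 NIP), beside backgrounds of 19.3% and 5.65%, or 24.9% in both directions. After median-of-ratios scaling, 4 genes were called higher and 2 lower, beside 804 and 764 of 19191 entries tested. A limma adjusted p under 0.05 was then reached by 4 higher and 2 lower, beside 3875 entries in both directions. With the FPKM as deposited, the median log2 fold change was 0.39 over the 23 genes, 0.64 over the PIP genes and 0.20 over all entries. Fitted changes were above 0 in 18 of the 23 genes and in 67.3% of all entries. The libraries of both groups did not overlap, with GLY higher, in 11 of the 23 genes and in 34.3% of all entries, and with GLY lower in 3 genes and in 10.6% of all entries.

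**Figure D1:**
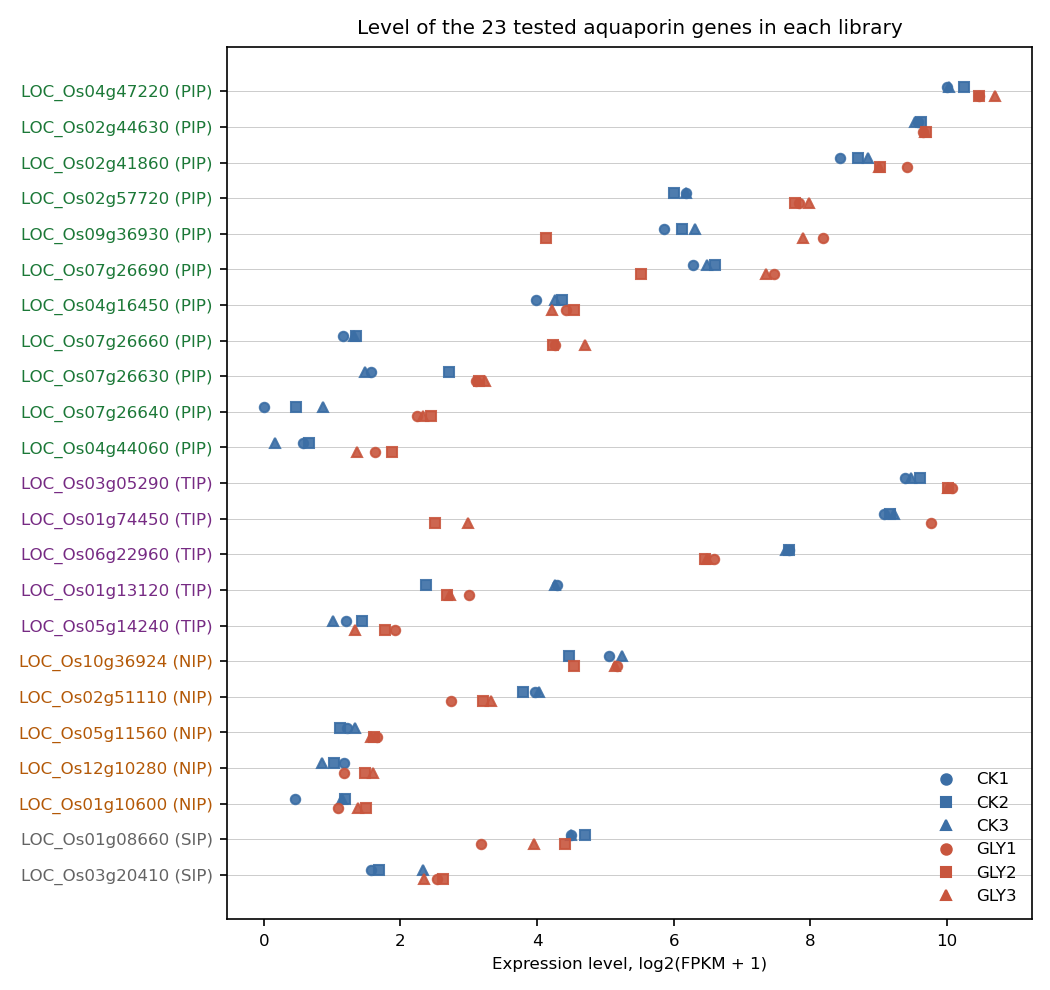
Level of each of the 23 tested aquaporin genes in the 6 libraries, on log2(FPKM + 1), with CK in blue and GLY in red and the symbol giving the replicate number. Means over the 6 libraries ran from 1.23 FPKM in LOC_Os01g10600 to 1296 FPKM in LOC_Os04g47220, and the GLY libraries of LOC_Os01g74450, LOC_Os09g36930 and LOC_Os07g26690 stood apart from each other.

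The aquaporin pool was dominated by few genes. The 6 genes with the highest means held between 87.4% and 93.6% of the summed aquaporin FPKM of a library. In order of the mean over the 6 libraries these began with LOC_Os04g47220 (PIP), LOC_Os03g05290 (TIP), LOC_Os02g44630 (PIP), LOC_Os02g41860 (PIP) and LOC_Os01g74450 (TIP). The FPKM of a gene entry is a level per length of all its exons merged, so it is lower than the sum over transcripts in genes with several transcripts. Summed over transcripts instead, a comparison added after the data were seen, LOC_Os02g44630 (mean of 982 FPKM) came before LOC_Os03g05290 (882 FPKM), the other 3 kept their order, and LOC_Os07g26690 was the sixth gene with 249.5 FPKM in place of 107.6 FPKM. The 6 highest sums then held between 85.3% and 90.6%.

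The PIP genes are described first, since they were both the most abundant and the most often called. Positions are those of the deposited transcript table, for which the study's methods name IRGSP build 5.0. LOC_Os04g47220 (chr4:28046537-28048542, the + strand) was the most abundant aquaporin mRNA and ranked 36 among all 35018 entries. It was at 1024, 1212 and 1038 FPKM in CK1 to CK3 and at 1413, 1415 and 1670 FPKM in GLY1 to GLY3. All 3 GLY libraries exceeded all 3 CK libraries. A log2 fold change of 0.46 was fitted (SE 0.107, limma adjusted p = 0.0299), and after median-of-ratios scaling it was 0.16 (adjusted p = 0.365). Without CK1, CK3 or any 1 GLY library the adjusted p was between 0.0557 and 0.0943, and without CK2 it was 0.0301.

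LOC_Os02g44630 (chr2:27044319-27047453, +) was at 760.5, 782.6 and 740.5 FPKM in CK and at 804, 829 and 821 FPKM in GLY. The groups did not overlap, but the difference was small, with a log2 fold change of 0.10 and a 95% interval from -0.05 to 0.25 (limma adjusted p = 0.26). After median-of-ratios scaling the value was -0.20. LOC_Os02g41860 (chr2:25162543-25166617, +) was at 345, 414 and 456 FPKM in CK and at 681, 518 and 510.1 FPKM in GLY. Its groups did not overlap either, and the log2 fold change of 0.49 (SE 0.16) had a limma adjusted p of 0.0765. It was 0.19 after median-of-ratios scaling.

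LOC_Os02g57720 (chr2:35349673-35351454, +) was the called PIP gene with the highest level. Its mRNA was at 71.7, 62.9 and 71.1 FPKM in CK and at 228, 217 and 252 FPKM in GLY. The lowest GLY library was thus well above the highest CK library, and the mean rose from 68.6 ± 4.91 to 232 ± 17.8 FPKM (SD, n = 3), a ratio of 3.39. In limma this was 1.74 on the log2 scale (SE 0.0959, adjusted p = 0.000495), and it ran from 1.68 to 1.79 when any 1 library was left out.

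LOC_Os04g44060 (chr4:26099273-26101782, +) was a PIP gene at a low level, with 0.49, 0.579 and 0.119 FPKM in CK and 2.09, 2.69 and 1.58 FPKM in GLY. The groups did not overlap. On log2(FPKM + 1), which understates changes at such levels, the change was 1.16 (SE 0.203, limma adjusted p = 0.0123), and with a pseudocount of 0.1 it was 2.29. The authors' coverage of this gene was between 0.443 and 11.4 reads per base in the 6 libraries.

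**Figure D2:**
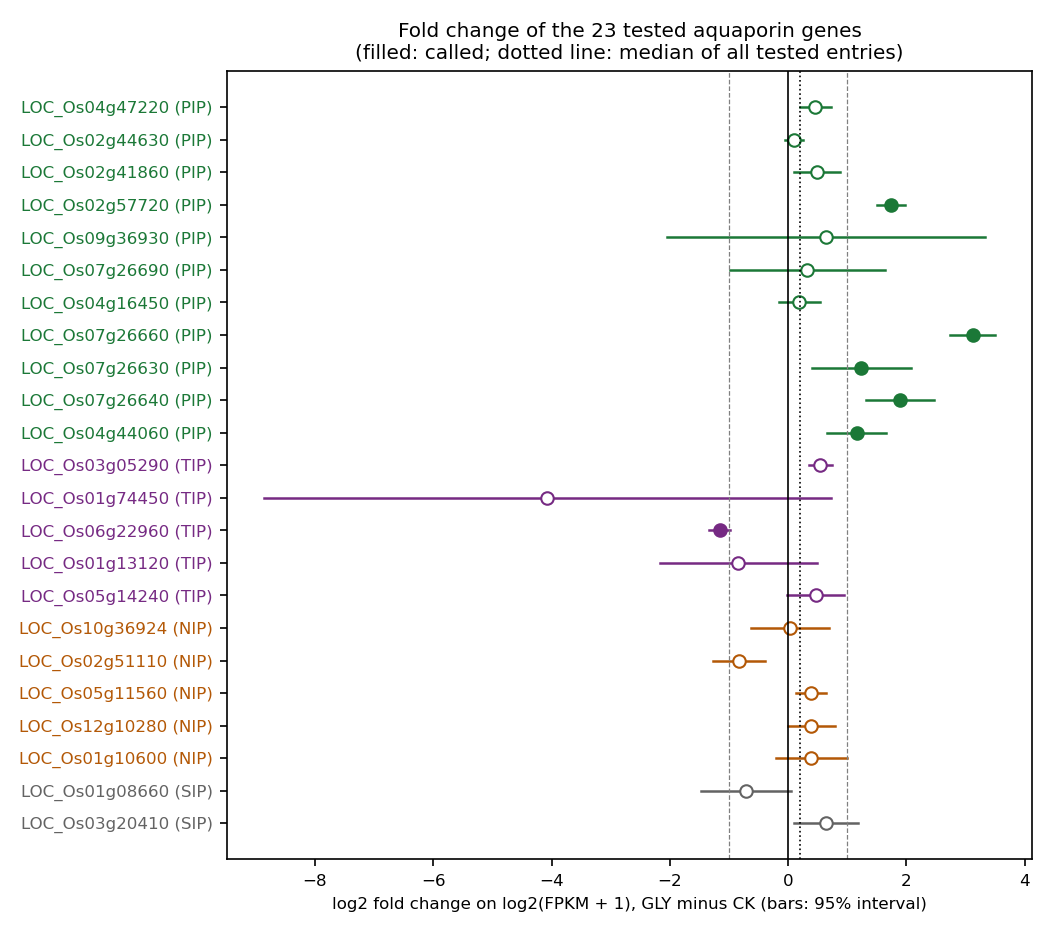
Log2 fold change of each tested aquaporin gene, GLY minus CK on log2(FPKM + 1), with its 95% interval from limma, and filled points for called genes. All 5 filled points to the right are PIP genes and the filled point to the left, at -1.16, is the TIP gene LOC_Os06g22960, while the broad bar of LOC_Os01g74450 ran from -8.87 to 0.73.

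Of the 5 called PIP genes, 3 were neighbours on chromosome 7. LOC_Os07g26630 (chr7:15358960-15360495), LOC_Os07g26640 (chr7:15369135-15370167), LOC_Os07g26660 (chr7:15376916-15378292) and LOC_Os07g26690 (chr7:15406442-15409801) all lie on the + strand within 50.8 kb. The gaps between them were 8639, 6748 and 28149 bases, and the 6 transcripts listed within this stretch were all transcripts of these 4 genes. Copies of a gene family so close together can be similar in sequence. How the authors' reads were divided between similar copies is not given in the sources used here, so the split of FPKM among these 4 genes is uncertain.

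LOC_Os07g26660 had the largest fitted rise among the 23 genes. It was at 1.238, 1.547 and 1.496 FPKM in CK and at 18.1, 17.9 and 25.1 FPKM in GLY. The means were 1.43 ± 0.165 and 20.3 ± 4.11 FPKM (SD, n = 3), a ratio of 14.3. The log2 fold change was 3.12 (SE 0.155, limma adjusted p = 0.000369), and it lay between 2.97 and 3.20 when any 1 library was left out.

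LOC_Os07g26640 was listed at 0, 0.385 and 0.832 FPKM in CK and at 3.73, 4.47 and 4.04 FPKM in GLY. Its groups were well apart, and the log2 fold change on log2(FPKM + 1) was 1.89 (SE 0.233, limma adjusted p = 0.00443), and with a pseudocount of 0.1 it was 3.55 (adjusted p = 0.029). LOC_Os07g26630 was at 1.98, 5.56 and 1.79 FPKM in CK and at 7.596, 7.892 and 8.402 FPKM in GLY. CK2 was closer to the GLY libraries than to the other CK libraries, though the groups did not overlap. The change of 1.24 (SE 0.339, limma adjusted p = 0.0464) became 1.63 without CK2 (adjusted p = 0.0031), and without any other single library its adjusted p was between 0.103 and 0.125. After median-of-ratios scaling it was 0.99, just under the call threshold.

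LOC_Os07g26690, the most abundant of the 4 neighbours, was at 77.1, 96.5 and 88.6 FPKM in CK and at 176, 45.0 and 162 FPKM in GLY. GLY1 and GLY3 were above all CK libraries and GLY2 was below all of them. The log2 fold change of 0.32 had a 95% interval from -0.99 to 1.64 (limma adjusted p = 0.697), and without GLY2 it was 0.95 (adjusted p = 0.0168). The genes on either side of the 4 neighbours, LOC_Os07g26610 and LOC_Os07g26700, had log2 fold changes of -0.10 (SE 0.177) and -0.10 (SE 0.223), with limma adjusted p of 0.712 and 0.788.

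**Figure D3:**
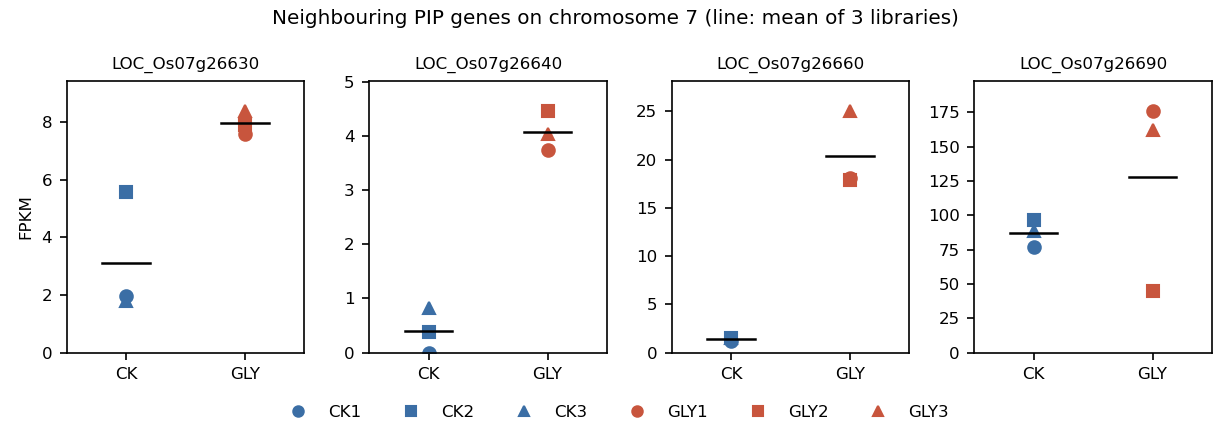
FPKM of the 4 neighbouring PIP genes of chromosome 7 in each library, with a line at the mean of 3 libraries and a separate linear axis from 0 for each gene. LOC_Os07g26630, LOC_Os07g26640 and LOC_Os07g26660 had every GLY library above every CK library, while GLY2 of LOC_Os07g26690, at 45.0 FPKM, lay below its CK libraries.

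The remaining PIP genes were LOC_Os09g36930 (chr9:21310129-21311548, +) and LOC_Os04g16450 (chr4:8948206-8950028, the - strand). LOC_Os09g36930 was at 57.2, 68.4 and 78.1 FPKM in CK and at 291, 16.6 and 236.5 FPKM in GLY. As in LOC_Os07g26690, GLY1 and GLY3 were high and GLY2 was the lowest of the 6 libraries. Its log2 fold change was 0.64 (SE 1.09, limma adjusted p = 0.704) over all libraries and 1.95 (adjusted p = 0.00762) without GLY2, when it was called. LOC_Os04g16450 was between 14.9 and 22.3 FPKM in all libraries, with a log2 fold change of 0.19 (95% interval -0.16 to 0.54), and of -0.10 after median-of-ratios scaling. All 11 PIP genes had fitted changes above 0 with the FPKM as deposited, beside 67.3% of all entries tested. After that scaling 9 of 11 did, and without GLY1 also 9 of 11. The median log2 fold change of all entries was then -0.02 and 0.20, and their shares above 0 are not given here.

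Among the TIP genes the called change was downward. LOC_Os06g22960 (chr6:13407319-13408859, +) was at 204.5, 204.6 and 198.5 FPKM in CK and at 94.9, 87.2 and 88.8 FPKM in GLY. Both groups were narrow and far apart, and the mean changed from 203 ± 3.51 to 90.3 ± 4.08 FPKM (SD, n = 3), a ratio of 0.446. On the log2 scale this was -1.16 (SE 0.071, limma adjusted p = 0.00066), and between -1.19 and -1.13 when any 1 library was left out.

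LOC_Os03g05290 (chr3:2562732-2564648, -), the most abundant TIP mRNA and rank 62 of all entries, was at 667.5, 779.9 and 706.6 FPKM in CK and at 1075, 1027 and 1035 FPKM in GLY. All GLY libraries were above all CK libraries. Its log2 fold change was 0.54 (SE 0.0797, limma adjusted p = 0.00723). After median-of-ratios scaling it was 0.24 (adjusted p = 0.0951).

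LOC_Os01g74450 (chr1:43115742-43117231, -) divided the GLY libraries. It was at 540.1, 570.2 and 597 FPKM in CK, at 869 FPKM in GLY1, and at 4.68 and 6.91 FPKM in GLY2 and GLY3. GLY1 was thus the highest of the 6 libraries and GLY2 and GLY3 the lowest. The log2 fold change of -4.07 had an SE of 1.95 (limma adjusted p = 0.184). Without GLY1 it was -6.41 and called (adjusted p = 0.000525), and without GLY2 or GLY3 it was -2.78 or -3.02 (adjusted p of 0.39 and 0.374).

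The other TIP genes were less abundant. LOC_Os01g13120 (chr1:7297672-7298971, +) was at 18.6, 4.19 and 18.2 FPKM in CK and at 7.00, 5.40 and 5.62 FPKM in GLY. CK2 was the lowest of the 6 libraries, and the log2 fold change of -0.84 (SE 0.537, limma adjusted p = 0.303) became -1.47 and was called without it (adjusted p = 0.00615). LOC_Os05g14240 (chr5:8000545-8002994, +) had a mean of 1.79 FPKM, overlapping groups and a log2 fold change of 0.47 (95% interval -0.02 to 0.95). LOC_Os01g13130 (chr1:7302368-7303788, +), which lies 3396 bases from LOC_Os01g13120, LOC_Os02g44080 (chr2:26608361-26609658, -) and LOC_Os04g44570 (chr4:26380265-26381607, +) averaged less than 0.5 FPKM. LOC_Os02g44080 and LOC_Os04g44570 had 0 FPKM listed in each CK library, so that no fold is given.

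Of the NIP genes, 0 of 5 tested were called by limma, beside 8.98% of all entries. An adjusted p under 0.05 was reached by 2, beside 24.9% of all entries, and an unadjusted p under 0.05 by the same number. LOC_Os02g51110 (chr2:31266245-31269960, +), the 1 aquaporin gene with deposited terms for silicate transport and the Casparian strip, was at 14.7, 12.8 and 15.3 FPKM in CK and at 5.71, 8.27 and 9.06 FPKM in GLY. Every GLY library was below every CK library. The log2 fold change was -0.83 (SE 0.176, limma adjusted p = 0.0219), and after median-of-ratios scaling it was -1.10 and called (adjusted p = 0.01). Leaving out CK1, CK3 or GLY2 gave adjusted p of 0.0682, 0.0711 and 0.0514.

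LOC_Os05g11560 (chr5:6539817-6544810, -) was at 1.32, 1.18 and 1.52 FPKM in CK and at 2.16, 2.05 and 1.97 FPKM in GLY, with no overlap. Its log2 fold change of 0.39 (SE 0.103, limma adjusted p = 0.0423) had adjusted p between 0.0623 and 0.116 when any 1 library was left out, and was 0.20 after median-of-ratios scaling (adjusted p = 0.245). LOC_Os10g36924 (chr10:19778055-19785158, -), the most abundant NIP mRNA, was between 21.1 and 36.9 FPKM in CK and between 22.3 and 35.1 FPKM in GLY. Its log2 fold change of 0.03 had a 95% interval from -0.63 to 0.69 and turned to -0.26 after median-of-ratios scaling. LOC_Os12g10280 (chr12:5435963-5439545, +) and LOC_Os01g10600 (chr1:5663323-5668903, -) both had a log2 fold change of 0.39, with overlapping groups and limma adjusted p of 0.133 and 0.291.

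The NIP genes LOC_Os01g02190 (chr1:645574-646723, -), LOC_Os02g13870 (chr2:7515989-7519336, -), LOC_Os06g35930 (chr6:20960706-20961819, +) and LOC_Os08g05580 (chr8:2983741-2986762, +) were under a mean of 0.5 FPKM. Together with the 3 TIP genes under that mean, these 7 genes were at most at 0.787 FPKM in any library, with a coverage of at most 2.99 reads per base. They were not tested. The groups did not overlap in 4 of them, with LOC_Os01g02190 and LOC_Os01g13130 lower and LOC_Os02g13870 and LOC_Os04g44570 higher in GLY. The share of all entries under that mean without overlap was not computed, so this count cannot be judged against a background.

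The SIP genes pointed in opposite directions and neither was called. LOC_Os01g08660 (chr1:4313645-4315834, -) was between 21.6 and 24.9 FPKM in CK and between 8.10 and 20.1 FPKM in GLY, with a log2 fold change of -0.72 (SE 0.308, limma adjusted p = 0.147). LOC_Os03g20410 (chr3:11546447-11549084, -), described as aquaporin SIP2-1, was between 1.98 and 4.05 FPKM in CK and between 4.10 and 5.18 FPKM in GLY, with a log2 fold change of 0.64 (SE 0.222, adjusted p = 0.089). In both genes the groups did not overlap, as in 10.6% of all entries tested with GLY lower and 34.3% with GLY higher.

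Summed over its 11 genes, the PIP subfamily was at 2355, 2664 and 2496 FPKM in CK and at 3645, 3096 and 3709 FPKM in GLY. Every GLY library was above every CK library, and the means were 2505 ± 155 and 3483 ± 337 FPKM (SD, n = 3). The difference of 979 FPKM was 354 FPKM after median-of-ratios scaling, and the groups then overlapped, with 2543, 2877 and 2780 in CK and 3261, 2706 and 3297 in GLY. PIP genes made up between 60.9% and 62.1% of the summed aquaporin FPKM in CK and between 63.4% and 75.5% in GLY. Without the TIP gene LOC_Os01g74450 these shares were between 70.9% and 71.6% in CK and between 72.3% and 75.6% in GLY.

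The TIP sum was at 1432, 1561 and 1521 FPKM in CK and at 2049, 1127 and 1138 FPKM in GLY. The GLY libraries lay on both sides of the CK libraries. Without LOC_Os01g74450, which was left out after its values were seen, the sum was 936 ± 50.6 FPKM in CK and 1145 ± 30.9 FPKM in GLY (SD, n = 3), and the groups did not overlap. After median-of-ratios scaling this sum was between 963 and 1071 in CK and between 981 and 1056 in GLY, the groups overlapped, and the difference of 209 FPKM became -7.24. The NIP sum was 48.3 ± 9.15 and 44.1 ± 6.43 FPKM and the SIP sum was 25.5 ± 1.75 and 19.0 ± 6.21 FPKM, both with overlapping groups. After median-of-ratios scaling the SIP sum was between 25.5 and 29.3 in CK and between 11.6 and 22.1 in GLY, with no overlap.

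**Figure D4:**
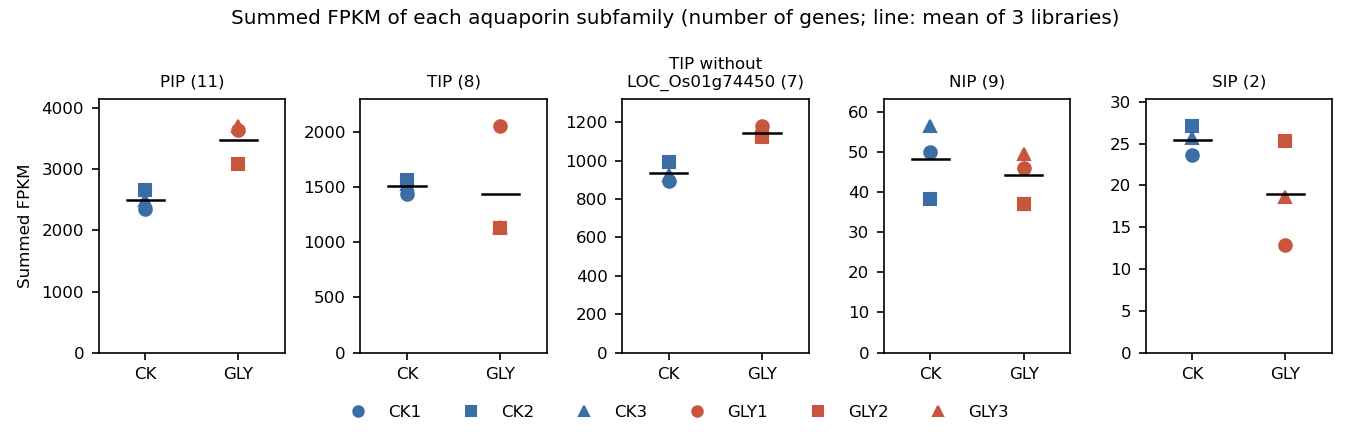
Summed FPKM of each aquaporin subfamily in each library, with a line at the mean of 3 libraries and a separate linear axis from 0 in each panel. The PIP sums of GLY, from 3096 to 3709 FPKM, were above all CK sums before, but not after, median-of-ratios scaling, and the TIP sums of GLY parted into 2049 FPKM in GLY1 and 1127 and 1138 FPKM in GLY2 and GLY3 unless LOC_Os01g74450 was left out.

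At the level of transcripts, 42 belonged to the 30 gene entries, and 22 of the genes had 1 transcript. Of the 34 transcripts tested, 7 were called higher and 1 lower in GLY, beside backgrounds of 6.66% and 2.66% of 32646 transcripts tested (9.33% together). A limma adjusted p under 0.05 was reached by 5 higher and 1 lower, beside 4.4% and 1.79% (6.19% together). Of the 7, MSTRG.26914.1 at LOC_Os09g36930 (log2 fold change of 1.27) was not called without CK1, CK3, GLY1 or GLY2, when its change was between 0.99 and 1.26. Nor was it called with a library-size covariate (1.18) or without moderation of variances (1.27).

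LOC_Os02g44630, whose gene level hardly differed between the groups, had transcripts with unlike changes. LOC_Os02g44630.2 was at 77.2, 74.0 and 82.7 FPKM in CK and at 225, 192 and 99.8 FPKM in GLY. All GLY libraries were above CK, and GLY3 was the closest to it. The log2 fold change was 1.05 (SE 0.305, adjusted p = 0.107), whereas that of LOC_Os02g44630.1 was -0.12 (SE 0.0924, adjusted p = 0.486). The call of LOC_Os02g44630.2 was lost after median-of-ratios scaling (0.77) and without GLY1 (0.82) or GLY2 (0.94). As a share of the gene's summed transcript FPKM, LOC_Os02g44630.2 made up 8.25 ± 0.664% in CK and 16.9 ± 6.42% in GLY (SD, n = 3), and LOC_Os02g44630.1 made up 80.0 ± 0.597% and 68.6 ± 5.50%. The share of LOC_Os02g44630.2 was 22.4% in GLY1 and 18.5% in GLY2, but 9.87% in GLY3, close to the 8.94% of CK3.

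At the genes whose GLY libraries stood apart, 1 annotated transcript and 1 overlapping assembled transcript, picked after their values were seen, differed in which libraries were low. LOC_Os01g74450.1 was at 668, 706 and 739 FPKM in CK and at 1075, 5.75 and 6.45 FPKM in GLY. MSTRG.3774.1, an unspliced transcript that spans the same gene on the same strand and is a separate entry, was at 10.6, 12.5 and 14.3 FPKM in CK and at 33.5, 24.5 and 32.4 FPKM in GLY. It was higher in every GLY library, with a log2 fold change of 1.203 (SE 0.186, limma adjusted p = 0.0218), and it was not low in GLY2 and GLY3. After median-of-ratios scaling it was 0.93 and not called (adjusted p = 0.0535). MSTRG.3775.1, the spliced assembled transcript in the entry of the gene itself, was at 1.503, 1.277 and 1.152 FPKM in CK and at 2.855, 0.0397 and 1.712 FPKM in GLY, and was thus low in GLY2 but not in GLY3.

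LOC_Os09g36930.1 was at 83.6, 94.8 and 116 FPKM in CK, at 431 and 354 FPKM in GLY1 and GLY3, and was listed at 0 in GLY2. The unspliced transcript of the same entry, MSTRG.26914.1, was at 2.92, 6.81 and 2.84 FPKM in CK and at 11.04, 16.55 and 6.851 FPKM in GLY, and was highest in GLY2. LOC_Os07g26690.1 was at 160, 217 and 193 FPKM in CK and at 391, 71.6 and 364 FPKM in GLY. MSTRG.22586.1, the longest transcript of that gene, was at 13.04, 9.055 and 11.37 FPKM in CK and at 17.4, 17.0 and 16.9 FPKM in GLY, with no low value in GLY2. The other annotated transcript of that gene, LOC_Os07g26690.2, was also lowest in GLY2. It was at 1.668, 2.127 and 1.731 FPKM in CK and at 7.679, 0.6542 and 1.737 FPKM in GLY. Over all entries at 5 FPKM or more in both other libraries of the group, 1.22% of 6316 in GLY2 were below 0.1 of the lower of these, as LOC_Os09g36930 was, and the corresponding share ran from 1.22% to 1.54% over the 6 libraries. The cause of the low values was not tested.

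**Figure D5:**
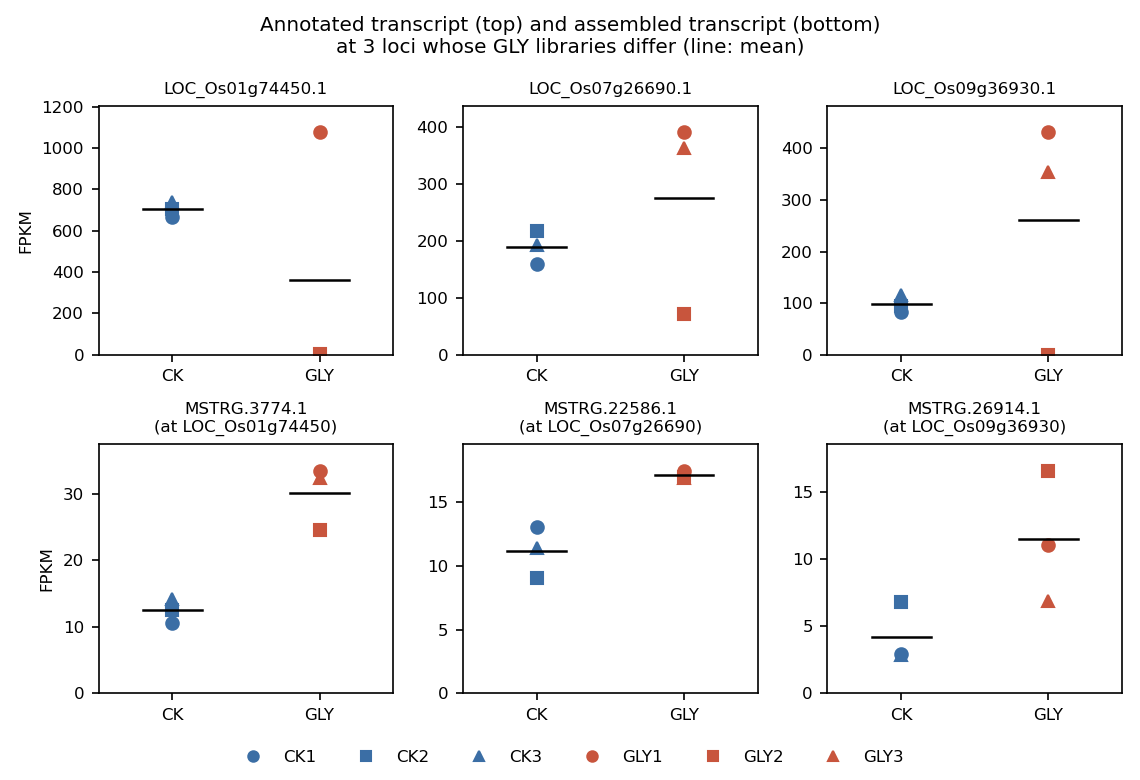
FPKM in each library of an annotated transcript (top row) and of an overlapping assembled transcript (bottom row) at LOC_Os01g74450, LOC_Os07g26690 and LOC_Os09g36930, with lines at the means of 3 libraries and a separate linear axis from 0 in each panel. The low GLY libraries of the annotated transcripts, such as GLY2 and GLY3 of LOC_Os01g74450.1 at 5.75 and 6.45 FPKM, were not low for the assembled transcripts drawn, whereas MSTRG.3775.1 of LOC_Os01g74450, which is not drawn, was at 0.0397 FPKM in GLY2.

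Transcripts antisense to aquaporin genes were scarce. The authors' assembly listed 10 at 6 loci, none above 6.96 FPKM in any library. All 10 were tested, and 1 was called, higher in GLY, beside 9.33% of all transcripts tested. This was MSTRG.10300.2 (log2 fold change of 1.07, limma adjusted p = 0.123). It was not called after median-of-ratios scaling (0.91), with a library-size covariate (-1.21) or without CK2 (0.76), GLY1 (1.03) or GLY2 (0.98). An adjusted p under 0.05 was reached by 1 other, MSTRG.10131.1 at LOC_Os02g41860, beside 6.19% of all transcripts. It was at 0.799, 0.695 and 0.5725 FPKM in CK and at 2.58, 2.44 and 1.87 FPKM in GLY (0.96, SE 0.182, limma adjusted p = 0.0371). Because the counting is not stated to use strand, reads of a gene and of its antisense partner may not be separable. LOC_Os06g12310, whose transcript is described as an aquaporin but whose gene entry has no description, fell outside the choice of members. It was between 47.1 and 67.0 FPKM in CK and between 47.5 and 64.3 FPKM in GLY, with a log2 fold change of 0.08 (SE 0.181, limma adjusted p = 0.789).

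Other transport genes that act beside aquaporins, and in the last list also carbonic anhydrase enzymes, were counted in lists chosen by their descriptions. Proton pumps set the gradients that drive transport at the plasma membrane and the vacuole. Of 14 tested, 0 were called by limma, beside 8.98% of all entries. The adjusted p was above 0.05 in all 14, while 24.9% of all entries were under it. The unadjusted p was under 0.05 in 1, and no share of all entries was computed for that. Potassium and anion channels and carriers move the ions that water follows, and 4 of 29 tested were called higher and 1 lower, beside 6.58% and 2.4% of all entries. At an adjusted p under 0.05 there were 9 higher and 1 lower, beside 19.3% and 5.65%, and the median log2 fold change was 0.05 against 0.20. The called genes with the largest changes were the potassium transporter LOC_Os04g32920 at 1.83 (SE 0.218), the potassium channel AKT1 gene LOC_Os06g14310 at 1.58 (SE 0.118) and the potassium transporter LOC_Os07g47350 at 1.31 (SE 0.145), with limma adjusted p of 0.00417, 0.00109 and 0.0035.

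The list for other aquaporin substrates, which holds ammonium and boron transporters and carbonic anhydrases by description, had 0 of 13 tested called higher and 4 lower, beside 6.58% and 2.4% of all entries. By adjusted p, 1 was higher and 6 were lower, beside 19.3% and 5.65%, and the median log2 fold change was -0.69. That median is the value of an entry described as a carbonic anhydrase enzyme. The list mixes transporters and enzymes, so its counts and median are not those of carriers alone. LOC_Os02g40730, described as an ammonium transporter, was at 3.30, 4.60 and 3.42 FPKM in CK, was listed at 0 in GLY1 and GLY2, and was at 0.0381 FPKM in GLY3. Its log2 fold change was -2.23 (SE 0.139, limma adjusted p = 0.00068). The other 3 carry the description of a bifunctional monodehydroascorbate reductase and carbonic anhydrase, an enzyme name and not a carrier, with log2 fold changes of -2.67 for LOC_Os08g36680, -2.21 for LOC_Os08g32780 and -1.78 for LOC_Os08g32750.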

How the data were processed

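Leaf RNA of 3 CK and 3 GLY samples of rice line CA21 was depleted of ribosomal RNA and sequenced in pairs. The authors aligned the reads to the Nipponbare genome (IRGSP build 5.0) with TopHat2, assembled them with StringTie and deposited FPKM values of gene entries and transcripts from Ballgown. The deposited coverage of each transcript, in reads per base, was used only to give depth. The depth figure of a library is the median ratio of coverage to FPKM over transcripts, not a count of its mapped bases. Read counts per gene were not used here, so precision comes from the spread between libraries.

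Values were taken as log2(FPKM + 1). Entries averaging 0.5 FPKM or more entered a moderated linear model in R 4.3.3 (limma 3.58.1, with a mean-variance trend and no covariate), two-sided, with Benjamini-Hochberg adjustment over all entries tested. Calls needed a change of 1 or more on the log2 scale, in either direction, with an unadjusted P under 0.05. The fit was tested on simulated data. Other steps used Python 3.11.15 with pandas 2.3.3 and matplotlib 3.10.9.

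Every member was named with its position. Values per library were given for members that were called, had an adjusted p under 0.05 or were among the 5 highest means, and of other lists at most 3 called genes with the largest changes were named. LOC_Os07g26690, LOC_Os09g36930, LOC_Os01g13120, LOC_Os06g12310, the flanking genes and the transcripts were chosen after their values were seen, as was LOC_Os08g32750. The members and lists were chosen with earlier results of these data known. Alternatives were another pseudocount, filter, scaling, covariate, variance estimate, a replicate block and leaving out each library.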

Additional observations from a re-analysis of the deposited data

How the results depend on the processing

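The 6 called aquaporin genes were all still called with a pseudocount of 0.1, with no filter, with a minimum mean of 1 FPKM, without moderation of variances, with the replicate block and without any 1 library. After median-of-ratios scaling 5 of 6 were, since LOC_Os07g26630 was lost, and with a library-size covariate computed as in Ballgown, whose correlation with the group over the 6 libraries was 0.988, 2 of 6 were. Calls lower in GLY numbered 1 as reported, 2 after median-of-ratios scaling, 0 with the covariate, and 1 to 2 without 1 library. Genes at an adjusted p under 0.05 and higher in GLY numbered 8 as reported, 5 without the filter, 4 after median-of-ratios scaling, 0 with the covariate, 5 with the replicate block and 5 to 7 without 1 library. Those lower numbered 2 as reported, 0 with the covariate, 1 without moderation, 1 with the replicate block and 1 to 3 without 1 library. The deviations of same-numbered libraries correlated at 0.003, 0.010 and 0.006, so the numbers were not taken to pair the libraries, and with the block 2462 entries, against 4816, had an adjusted p under 0.05. Over all entries, 3227 were called with a pseudocount of 0.1 against 1734, and 732 were called higher and 456 lower with the covariate. An adjusted p under 0.05 was reached by 0 with the covariate and by between 3058 and 3686 without 1 library. It was reached by 3990 of 35018 without the filter, 3875 of 19191 after median-of-ratios scaling and 4044 of 19316 without moderation. Median-of-ratios scaling turned the sign in LOC_Os02g44630 (-0.20), LOC_Os04g16450 (-0.10), LOC_Os10g36924 (-0.26) and transcript LOC_Os07g26690.1 (-0.08), and the covariate did in LOC_Os01g74450 (6.92) and LOC_Os12g10280 (-0.84). Without 1 library, log2 fold changes ran from -0.02 to 0.95 in LOC_Os07g26690, from -0.08 to 1.95 in LOC_Os09g36930 and from -0.19 to 0.24 in LOC_Os10g36924, and in transcripts from -0.46 to 0.49 in MSTRG.3775.1, from -0.38 to 0.01 in LOC_Os02g41860.1, from -0.22 to 1.0 in LOC_Os07g26690.1, from -0.41 to 0.78 in LOC_Os07g26690.2 and from -2.38 to 1.99 in LOC_Os09g36930.1. With the covariate 1 proton pump and 1 potassium or anion gene were called. Transcript calls in the member entries numbered 7 higher and 1 lower as reported, 6 and 2 after median-of-ratios scaling, 3 and 0 with the covariate, and 5 to 7 and 1 to 2 without 1 library. The shares of all transcripts called in these alternatives are not given here, so these counts cannot be judged against a background. The difference of subfamily sums, GLY minus CK, was 354 FPKM for PIP and -13.7 FPKM for NIP after median-of-ratios scaling, against 979 and -4.17 FPKM, and -7.24 FPKM against 208.7 FPKM for TIP without LOC_Os01g74450, a combination chosen after seeing the data, and without 1 library it ran from 866 to 1172 FPKM for PIP, from -372 to 88.8 FPKM for TIP, from -9.12 to -0.0993 FPKM for NIP and from -9.69 to -3.49 FPKM for SIP. The causes of these changes were not tested. Having 3 libraries a group and the low FPKM of 7 genes limit what these data can show.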
